A study of Saccharomyces cerevisiae with 12 samples.

Results

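The yeast NuA4 histone acetyltransferase was examined for what the loss of its catalytic subunit adds once the subunit that anchors it is already gone. The comparison was made between 3 libraries of Saccharomyces cerevisiae labelled esa1Δ epl1Δ sds3Δ (called triple-labelled here) and 3 carrying the label epl1Δ sds3Δ, which make up 6 of the 12 libraries of the series. They were chosen by their labels alone. Of 7126 genes and RNAs listed in each library, 5956 averaged at least 1 RPKM over all 12 libraries and were tested (RPKM is reads scaled to gene length and to library depth).

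ESA1 encodes the catalytic subunit of NuA4, which acetylates histones H4 and H2A at many active promoters. EPL1, the yeast relative of Enhancer of Polycomb, encodes the subunit that holds Esa1 in the small piccolo-NuA4 core and joins that core to the rest of the complex. Both genes are essential in otherwise normal yeast, and cells that also lack SDS3, which encodes a member of the Rpd3L histone deacetylase complex, can live without them. Without Epl1 the Esa1 protein has no piccolo-NuA4 to act in, so the comparison asks which transcripts differ when ESA1 is deleted in that state.

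All strains were MATα haploids of the W303 background and were harvested in mid-log growth at 24 °C in synthetic complete medium. For wild type the source gives the alleles ade2-1, can1-100 and his3-11, with trp1-1, ura3-1 and a mutant LEU2 allele. In the label, EPL1 was replaced by kanMX and SDS3 by natMX in both groups compared, and ESA1 by HIS3 in the triple-labelled strain only. Loss of ESA1 and presence of the HIS3 marker therefore cannot be told apart in this comparison. The other libraries, 3 wild-type and 3 labelled esa1Δ sds3Δ, are given beside them. No libraries labelled sds3Δ alone or epl1Δ alone were analysed here. The labels call the replicates biological triplicates without naming the clones they came from, so a difference between 2 strains cannot be told apart from a difference between the clones used. The reads behind the RPKM values numbered between 8089179 and 10314855 in the epl1Δ sds3Δ-labelled libraries, and the triple-labelled libraries had 9046732, 8378148 and 14527280.

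Few transcripts differed by the test when the esa1Δ label was added. In limma, with Benjamini-Hochberg adjustment over all 5956 features, 8 were called at an adjusted p under 0.05, which is 0.134% of those tested. HIS3 and APD1 rose (0.0336%), and ESA1, YHK8, AQY3, YBR137W, TPO1 and YMR315W fell (0.101%). ESA1 is the deleted gene and HIS3 its marker, which leaves 6 called genes that the deletion itself does not touch. At an unadjusted p under 0.05 there were 388 features (6.51%), 198 higher (3.32%) and 190 lower (3.19%). The 2 groups did not overlap for 987 features (16.6%), 389 higher (6.53%) and 598 lower (10%). In the same fit, each mutant group differed widely from wild type, which all 3 comparisons share. With the epl1Δ sds3Δ label 1792 features were called higher (30.1%) and 1785 lower (30.0%), which is 60.1% in all. With the triple label 1795 were higher (30.1%) and 1744 lower (29.3%), 59.4% in all, and with the esa1Δ sds3Δ label 1784 were higher (30.0%) and 1770 lower (29.7%), 59.7% in all. The median size of the log2 fold change was 0.10 between the groups with and without the esa1Δ label, against 0.44 between the epl1Δ sds3Δ group and wild type and 0.43 between the triple-labelled group and wild type.

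**Figure D1:**
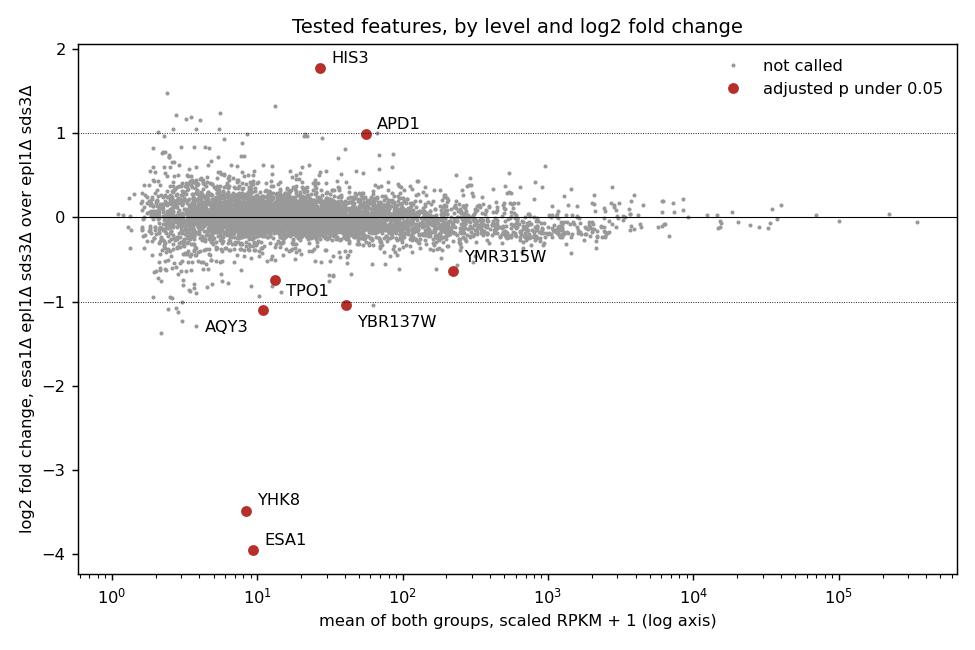
The plot of fold change by level shows each of the 5956 tested features as a point, with the mean scaled RPKM of both groups plus 1 on a log axis and the log2 fold change of esa1Δ epl1Δ sds3Δ over epl1Δ sds3Δ on the other axis. The 8 features with an adjusted p under 0.05 are red and named, and ESA1 and YHK8 lie far below the rest at -3.96 and -3.49. Dotted lines mark 1 log2 unit in either direction.

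Precision was enough to bound most transcripts on the scale of the test, log2(scaled RPKM + 1). At low levels 1 unit there is more than a 2-fold change in RPKM, and EPL1 moved 0.23 units at a ratio of means of 2.03. The 95% interval of the log2 fold change lay within 1 unit of 0 for 5682 features (95.4%), and within 0.5 units for 4248 (71.3%). Among the 3786 features with a mean of at least 10 scaled RPKM these numbers were 3726 (98.4%) and 3038 (80.2%), and among the 2170 below that level they were 1956 (90.1%) and 1210 (55.8%). Features that moved by 1 unit or more numbered 25 (0.420%), of which 5 were called. The other 20 had a median level of 1.65 RPKM, 16 were under 5 RPKM and 10 were nuclear tRNAs. By chromosome, the median log2 fold change of nuclear genes ranged from -0.03 on VIII to 0.01 on IV.

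The genes named in the labels were examined first. ESA1 (YOR244W, XV 792531 to 793868 in the R64 build) counted 228, 188 and 158 reads in the epl1Δ sds3Δ-labelled libraries and 2, 1 and 3 in the triple-labelled libraries. It stood at 17.1, 17.0 and 16.0 scaled RPKM in the former, above the 11.9, 10.1 and 13.5 of wild type. Summed over libraries and allowing for depth and scaling, its reads were 117 times as frequent without the esa1Δ label, with an exact interval of 53.6 to 321 that covers counting error only. The log2 fold change was -3.96 (SE 0.129, adjusted p 1.51e-09 in limma). ESA1 transcript was therefore present in the epl1Δ sds3Δ group and near 0 in every triple-labelled library.

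For EPL1 (YFL024C, VI 87847 to 90345) the reads numbered 5, 4 and 4 under the epl1Δ sds3Δ label and 13, 8 and 10 under the triple label, while wild type counted 142, 73 and 130. Both groups were near 0. The triple-labelled libraries all stood above the others, but EPL1 was not called (log2 fold change 0.23, 95% interval -0.23 to 0.68, limma's adjusted p 0.881). For SDS3 (YIL084C, IX 202276 to 203259) 54, 39 and 40 reads remained under the epl1Δ sds3Δ label and 36, 65 and 77 under the triple label, while wild type counted 142, 112 and 158. These reads go against the sds3Δ part of both labels, but a value per gene cannot show which part of the gene they cover. The level was 5.26 ± 0.402 against 5.83 ± 1.95 scaled RPKM (SD, n = 3 each), with a log2 fold change of 0.09 (95% interval -0.29 to 0.46, adjusted p 0.957 in limma), so a difference in SDS3 between the groups was not detected.

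HIS3 (YOR202W, XV 721946 to 722608), a histidine synthesis gene used as the marker of the esa1Δ allele, rose with that label. It had 9.06, 13.0 and 11.8 scaled RPKM in the epl1Δ sds3Δ-labelled libraries and 36.8, 43.2 and 42.5 in the triple-labelled libraries, with no overlap (log2 fold change 1.78, SE 0.173, adjusted p 3.02e-04 in limma). The libraries labelled esa1Δ sds3Δ had 39.4, 38.8 and 41.5. HIS3 was thus high in every library with the esa1Δ label, so those libraries do not part ESA1 loss from the marker. A value per gene cannot tell reads of the marker from those of the his3-11 allele. The genes flanking the named loci were not called between the 2 groups. Beside ESA1, PUS7, a pseudouridine synthase gene, gave -0.13 and DGA1, a diacylglycerol acyltransferase gene, gave -0.24 on the log2 scale. BST1 and BUD27 beside EPL1 gave -0.10 and 0.09, and KTR7 and CAB2 beside SDS3 gave 0.00 and 0.13. Against wild type, however, all of these flanking genes except BST1 were called in the epl1Δ sds3Δ group, as were 60.1% of all features. BUD27 averaged 0.672 scaled RPKM in wild type, 4.46 in the epl1Δ sds3Δ group and 4.82 in the triple-labelled group. KTR7 averaged 19.3 scaled RPKM in wild type, 83.6 in the epl1Δ sds3Δ group and 83.9 in the triple-labelled group. CAB2 averaged 28.3, 11.5 and 12.8 in the same order. The cause was not tested.

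YHK8 (YHR048W, VIII 204607 to 206151), which encodes a presumed drug antiporter of the plasma membrane transporter family DHA1, fell the most of the genes outside the deleted locus. It stood at 14.8, 14.1 and 14.4 scaled RPKM in the epl1Δ sds3Δ-labelled libraries and at 0.354, 0.232 and 0.556 in the triple-labelled libraries, which in reads is 229, 180 and 164 against 5, 3 and 12. The groups lie far apart, and replicates of the high group differ little. Wild type lay between them, at 1.60, 2.90 and 2.19 scaled RPKM, and the libraries labelled esa1Δ sds3Δ were near 0, at 0.0735, 0.303 and 0.394. The log2 fold change was -3.49 (SE 0.185, adjusted p 3.12e-07 in limma), and on the scale of reads the ratio was 35.2 (exact interval 22.6 to 58.0). Against wild type YHK8 rose in the epl1Δ sds3Δ group (2.28, adjusted p 7.29e-07 in limma) and fell in the triple-labelled group (-1.21, adjusted p 1.05e-04). High YHK8 was thus found in those 3 libraries alone among the 12. Its neighbours AAP1 and FSH1, an aminopeptidase and a serine hydrolase gene, gave -0.06 and -0.20 and were not called.

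The sequence upstream of the genes that changed is shown for YHK8, APD1, AQY3 and YBR137W, the 4 called genes whose fold change was nearest to or past 2-fold and which no label names. Each covers bases 250 to 81 before the start codon in the R64 build, read in the direction of the gene.
YHK8, chromosome VIII:204357-204526, plus strand: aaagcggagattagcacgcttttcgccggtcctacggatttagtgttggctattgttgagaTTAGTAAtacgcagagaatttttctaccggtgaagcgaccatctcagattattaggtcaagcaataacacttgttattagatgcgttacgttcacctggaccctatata
APD1, chromosome II:544778-544947, plus strand: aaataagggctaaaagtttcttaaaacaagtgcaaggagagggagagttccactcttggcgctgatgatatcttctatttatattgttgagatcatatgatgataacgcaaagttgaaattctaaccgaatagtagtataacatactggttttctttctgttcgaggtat
AQY3, chromosome VI:22868-23037, minus strand: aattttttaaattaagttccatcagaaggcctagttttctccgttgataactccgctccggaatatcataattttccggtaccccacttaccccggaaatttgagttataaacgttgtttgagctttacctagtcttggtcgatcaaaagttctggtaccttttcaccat
YBR137W, chromosome II:512794-512963, plus strand: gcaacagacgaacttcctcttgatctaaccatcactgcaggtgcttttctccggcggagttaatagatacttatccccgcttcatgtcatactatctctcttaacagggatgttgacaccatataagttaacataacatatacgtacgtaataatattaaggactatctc
Capitals mark TTAGTAA, which is the Yap1 motif TTACTAA read on the opposite strand. Of 4 motifs searched on both strands, AGGGG (Msn2 and Msn4), TGACTC (Gcn4 and Bas1), TTACTAA (Yap1) and TCCGCGGA (Pdr1 and Pdr3), it was the only match in these 4 windows. In the same window of 5515 tested protein-coding genes, TTACTAA was found in 4.44%, AGGGG in 14.3%, TGACTC in 5.04% and TCCGCGGA in 0.145%. A match of letters is a description of the window and not a site of binding.

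Among the other genes that fell, AQY3 (YFL054C, VI 20847 to 22787), which encodes a channel-like protein related to the glycerol facilitator Fps1, had 10.3, 15.3 and 16.0 scaled RPKM in the epl1Δ sds3Δ-labelled libraries and 6.77, 4.74 and 6.15 in the triple-labelled libraries. All 3 values with the esa1Δ label lay below all 3 without it (log2 fold change -1.10, SE 0.176, adjusted p 0.0300 in limma). The level in the epl1Δ sds3Δ group was close to that of wild type, at 11.8, 13.0 and 17.8, and against wild type AQY3 was called in the triple-labelled group (-1.14, adjusted p 1.19e-04 in limma) and not in the epl1Δ sds3Δ group (-0.03, 0.874). YBR137W (II 513044 to 513583) had 49.1, 46.2 and 66.1 scaled RPKM and 21.5, 29.0 and 26.0 in the same order (-1.04, SE 0.154, adjusted p 0.0172 in limma). Wild type was higher still, at 71.4, 64.6 and 80.7, so the level stepped down from wild type to the epl1Δ sds3Δ group (-0.43, adjusted p 0.0279 in limma) and again to the triple-labelled group. For both genes the libraries labelled esa1Δ sds3Δ and the triple-labelled ones differed by less than the spread, at 5.94 ± 0.192 against 5.89 ± 1.04 scaled RPKM for AQY3 and 27.1 ± 3.80 against 25.5 ± 3.76 for YBR137W (SD, n = 3 each).

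TPO1 (YLL028W, XII 84804 to 86564), which encodes a plasma membrane polyamine transporter of the same DHA1 family as Yhk8, had 15.4, 16.5 and 14.6 scaled RPKM in the epl1Δ sds3Δ-labelled libraries and 9.70, 9.09 and 7.80 in the triple-labelled libraries (log2 fold change -0.74, SE 0.127, adjusted p 0.0463 in limma). Wild type had 25.3, 29.9 and 20.7, and the 4 groups stand in falling order from wild type through epl1Δ sds3Δ and esa1Δ sds3Δ to the triple label. The last step, between 11.0 ± 1.05 and 8.86 ± 0.971, was not called (-0.29, 95% interval -0.56 to -0.01, adjusted p 0.758 in limma). YMR315W (XIII 902800 to 903849), which encodes an NADPH-linked oxidoreductase, had 262, 262 and 285 scaled RPKM against 156, 180.5 and 181 (-0.64, SE 0.104, adjusted p 0.0300 in limma). Here the epl1Δ sds3Δ group was the one that differed from wild type, at 162, 185 and 194 (0.58, adjusted p 3.82e-04 in limma), and the triple-labelled group lay at the wild-type level (-0.06, adjusted p 0.631).

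APD1 (YBR151W, II 545028 to 545978), which encodes a ferredoxin-like protein needed for the normal placing of actin patches and for tolerance of hydrogen peroxide, was the gene other than the marker that rose. It had 37.9, 30.8 and 40.2 scaled RPKM in the epl1Δ sds3Δ-labelled libraries and 66.7, 74.8 and 77.6 in the triple-labelled libraries, a ratio of means of 2.01 (log2 fold change 0.99, SE 0.127, adjusted p 0.00474 in limma). Wild type lay between the groups at 49.1, 50.4 and 62.6. Against wild type APD1 fell in the epl1Δ sds3Δ group (-0.56, adjusted p 0.00208 in limma) and rose in the triple-labelled group (0.43, adjusted p 0.0102). The libraries labelled esa1Δ sds3Δ had 67.4, 79.32 and 79.9, which do not differ beyond the spread from the triple-labelled ones (-0.05, 95% interval -0.32 to 0.23).

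**Figure D2:**
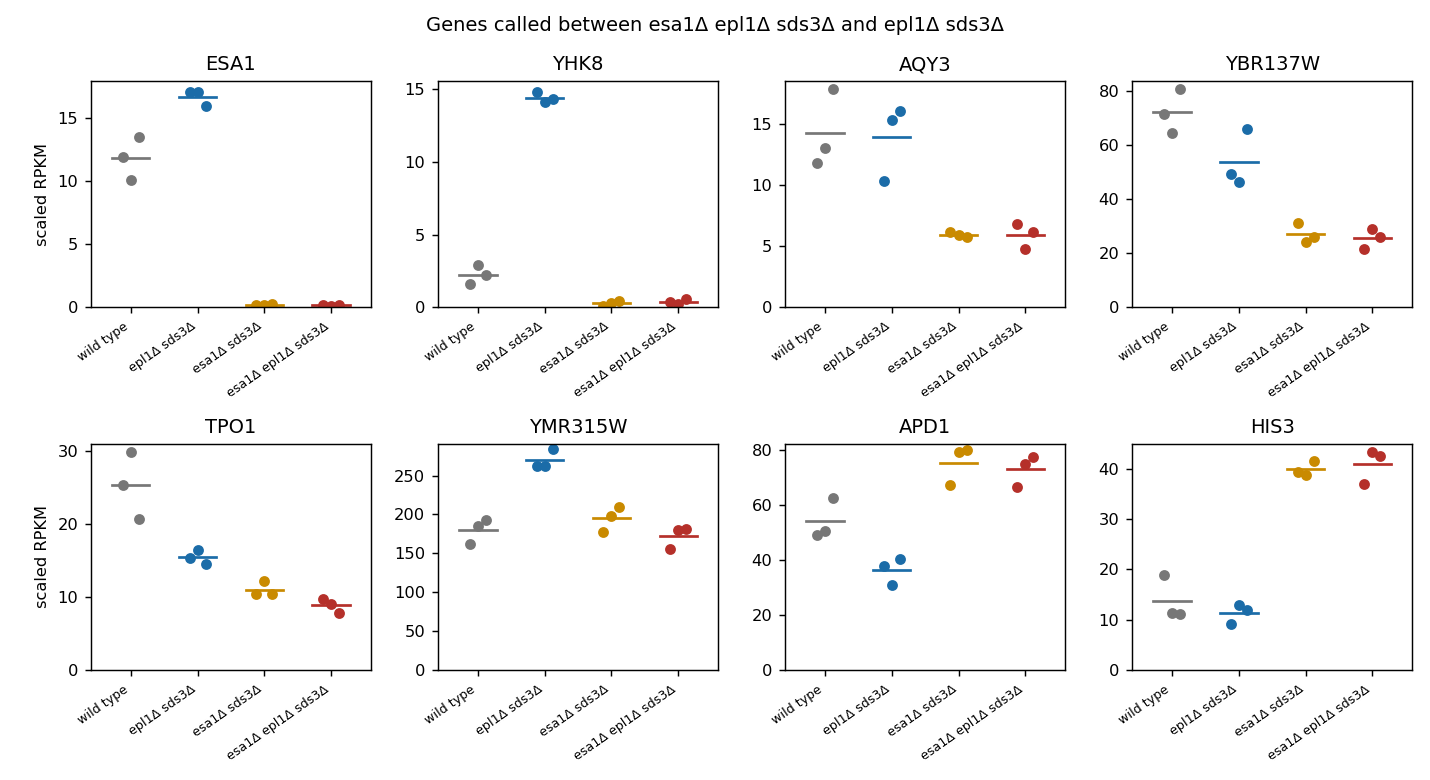
The plot of the called genes by library gives scaled RPKM (vertical axes from 0, a scale for each gene) for ESA1, YHK8, AQY3, YBR137W, TPO1, YMR315W, APD1 and HIS3 in the 4 groups, with a point for each library and a line at the group mean. In each panel the 3 triple-labelled libraries (red) lie wholly to one side of the 3 labelled epl1Δ sds3Δ (blue), and near the libraries labelled esa1Δ sds3Δ (ochre).

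The calls of ESA1, YHK8, HIS3 and APD1 held when any library of either group was left out. YBR137W was not called without triple-labelled replicate 1 (adjusted p 0.105 in limma) or 3 (0.0765) or without epl1Δ sds3Δ replicate 3 (0.0809). AQY3 was not called without triple-labelled replicate 1 (0.0689), 2 (0.201) or 3 (0.0947), nor without epl1Δ sds3Δ replicate 2 (0.182) or 3 (0.174). TPO1 was not called without any of the 6, with limma's adjusted p between 0.105 and 0.280. The same held for YMR315W, between 0.0947 and 0.232. The neighbours of the called genes were not called, and their log2 fold changes lay between -0.24 for DGA1 and 0.47 for YBR138C.

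With 2 genes called higher and 6 lower, the features with the next smallest p in each direction are given as ones that did not pass. The nearest was SIP18 (XIII 611016 to 611255), which encodes a phospholipid-binding hydrophilin made under osmotic stress. It had 32.1, 51.0 and 49.0 scaled RPKM in the epl1Δ sds3Δ-labelled libraries and 83.1, 89.1 and 90.3 in the triple-labelled libraries (log2 fold change 1.00, SE 0.185, adjusted p 0.0737 in limma), and 78.1, 62.4 and 88.7 in those labelled esa1Δ sds3Δ. GRE1, another hydrophilin gene, had 52.3, 77.9 and 68.0 against 98.3, 95.9 and 105 scaled RPKM (0.60, adjusted p 0.547 in limma). Both stand above wild type in all 9 mutant-labelled libraries. For both, epl1Δ sds3Δ replicate 1 was the lowest of its group, and that library stands apart for general stress genes below. PSY4, which encodes a regulatory subunit of protein phosphatase 4, had 5.14, 5.39 and 5.20 against 7.52, 7.75 and 7.23 (0.44, adjusted p 0.156 in limma). The rest on the higher side were GLO4 (mitochondrial glyoxalase II, 0.54), SRF1 (a regulator of phospholipase D, 0.34), HED1 (a meiosis-specific gene, 0.62), YBR138C (0.47) and the mitochondrial serine tRNA tS(GCU)Q1 (0.71), at adjusted p between 0.456 and 0.547 in limma.

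On the lower side the nearest was MF(ALPHA)2 (VII 344791 to 345153), a structural gene of the mating pheromone α-factor. It had 34.8, 42.4 and 38.0 scaled RPKM in the epl1Δ sds3Δ-labelled libraries and 22.0, 20.4 and 24.2 in the triple-labelled libraries (log2 fold change -0.76, SE 0.136, adjusted p 0.0614 in limma), far below the 148, 177 and 125 of wild type. The major α-factor gene MF(ALPHA)1 gave -0.04. YBR238C, which encodes a mitochondrial membrane protein, had 20.4, 21.3 and 19.0 against 13.7, 13.5 and 14.95 (-0.49, adjusted p 0.158 in limma). GCV1, which encodes the T subunit of the glycine cleavage complex, had 10.4, 9.87 and 11.1 against 6.28, 5.16 and 5.11 scaled RPKM (-0.82, adjusted p 0.311 in limma), and 6.23, 5.25 and 6.67 in the libraries labelled esa1Δ sds3Δ. YDR061W, whose product resembles ABC transporters, gave -0.41 at the same adjusted p.

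**Figure D3:**
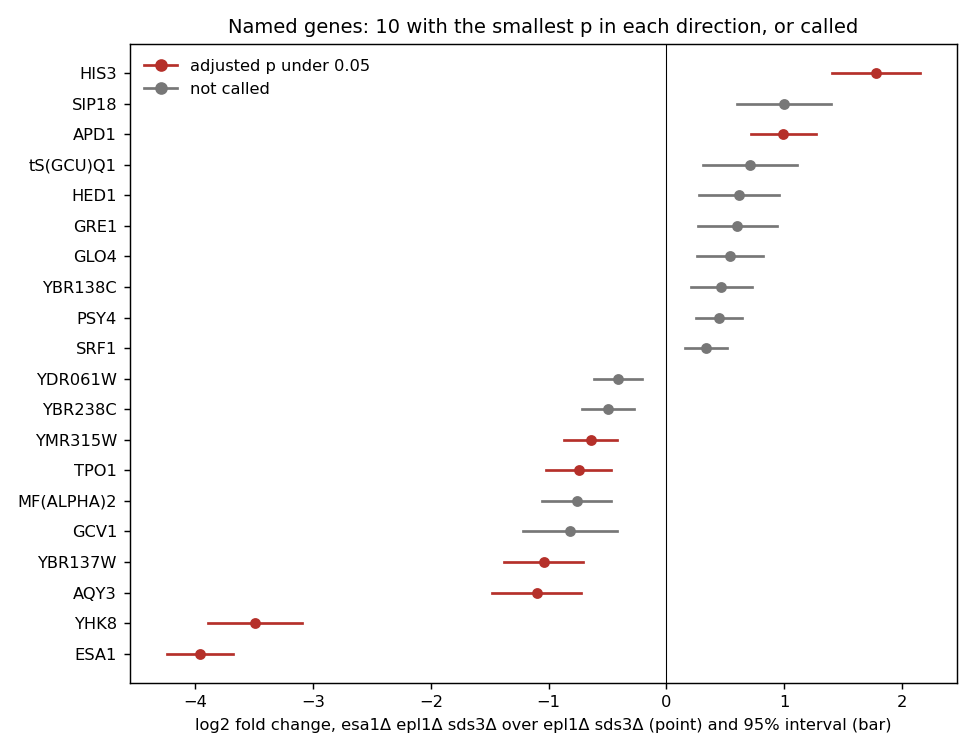
The plot of the leading genes in each direction gives the log2 fold change of esa1Δ epl1Δ sds3Δ over epl1Δ sds3Δ (points) with its 95% interval (bars), 10 genes higher and 10 lower. The 8 called genes are red, and the grey ones, among them SIP18 at 1.00 and MF(ALPHA)2 at -0.76, have intervals clear of 0 but an adjusted p over 0.05.

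The triple-labelled libraries differed from those labelled esa1Δ sds3Δ in 3 called features (0.0504%), and the 2 comparisons share the triple-labelled libraries, so their values are set side by side only. Those 3 were EPL1 itself, ATG19 and LEU1. ATG19, the receptor gene of the cytoplasm-to-vacuole pathway, stood at 9.96 ± 1.66 scaled RPKM in the epl1Δ sds3Δ group, 10.9 ± 2.04 in the triple-labelled group and 31.7 ± 1.10 in the esa1Δ sds3Δ group (SD, n = 3 each). Adding the esa1Δ label gave ATG19 a log2 fold change of 0.11 (95% interval -0.24 to 0.47), against -1.47 (limma's adjusted p 0.00200) from the esa1Δ sds3Δ to the triple-labelled group. LEU1, the isopropylmalate isomerase gene of leucine synthesis, stood at 104 ± 6.19, 94.2 ± 1.51 and 171 ± 8.12 in the same order, or -0.13 (95% interval -0.34 to 0.07) and -0.85 (adjusted p 0.00200 in limma). With the triple label, ATG19 and LEU1 thus lay near their epl1Δ sds3Δ level, whereas YHK8, APD1, AQY3 and YBR137W lay near their esa1Δ sds3Δ level.

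The direct difference between the esa1Δ sds3Δ and epl1Δ sds3Δ groups was called for 11 features (0.185%), 7 higher (0.118%) and 4 lower (0.0672%). These were ESA1, EPL1, HIS3, YHK8, AQY3, YBR137W, APD1, ATG19, LEU1, LEU2 and YSA1. LEU2, the isopropylmalate dehydrogenase gene, which wild type carries as a mutant allele, was at 71.1 ± 1.96 scaled RPKM in the epl1Δ sds3Δ group, 72.7 ± 8.30 in the triple-labelled group and 110 ± 5.79 in the esa1Δ sds3Δ group (SD, n = 3 each). YSA1, an ADP-sugar pyrophosphatase gene, was at 73.0 ± 6.33, 83.0 ± 4.33 and 109 ± 3.32. Neither LEU2 (0.03) nor YSA1 (0.18) was called when the esa1Δ label was added to epl1Δ sds3Δ.

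Other genes of the acetyltransferase pathway showed little. Of 13 tested NuA4 subunit genes, ESA1 was the only call, 9 lay above 0 and 4 below, and the median log2 fold change was 0.05. EAF7, a non-catalytic subunit, had 1.49, 1.52 and 1.80 scaled RPKM in the epl1Δ sds3Δ-labelled libraries and 2.23, 2.62 and 2.52 in the triple-labelled libraries (0.41, limma's adjusted p 0.758). EAF3 gave 0.10 and YAF9 0.16. Among 15 genes of SWR1, the H2A.Z-exchanging complex that shares subunits with NuA4, 13 lay above 0 with a median of 0.05. Among 14 of the Rpd3L and Rpd3S deacetylases, 10 lay above 0 with a median of 0.10, among them PHO23 (0.30), SAP30 (0.27), DEP1 (0.31) and ASH1 (0.28). Among 32 of SAGA and other acetyltransferases the median was 0.07, and among 25 of silencing and telomere factors it was 0.03. No member of these 4 lists was called. The 11 histone genes had a median of -0.09, with HTA2 and HTB2, the divergent H2A and H2B pair, at -0.30 and -0.36, and the sign of that median turned with quantile normalization (0.02). When a library was left out, the medians ranged from 0.01 to 0.13 for NuA4, the first without epl1Δ sds3Δ replicate 3 and the second without replicate 1, and that of silencing and telomere factors took either sign.

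The 43 gene lists held no called member apart from ESA1. Medians beyond 0.1 in either direction were found for 12 lists, against 0.00 for all features, of which 2984 lay above 0 and 2972 below. Of 138 ribosomal protein genes, 132 lay below 0 with a median of -0.16, and in 70 of them all triple-labelled libraries lay below all those labelled epl1Δ sds3Δ, against 10% of all features. At an unadjusted p under 0.05 in limma, 1 of the 138 was lower, against 3.19% of all features. RPL12A had 806, 676 and 805 scaled RPKM against 603, 562 and 600.3 (-0.37, limma's adjusted p 0.765), RPS0B 1077, 963 and 1039 against 805, 806 and 842 (-0.33) and RPL13A 382, 331 and 338 against 296, 286 and 276 (-0.29). The median of the list was -0.11 for RPKM as deposited, where the median of all features was 0.05, and -0.07 with quantile normalization. It ranged from -0.21 to -0.14 when a library was left out. Relative to the epl1Δ sds3Δ mean, the list lay at -0.14, -0.21 and -0.14 in the triple-labelled libraries. In those labelled esa1Δ sds3Δ it lay at 0.02, 0.00 and -0.06. Genes that build ribosomes rather than form them had a median of -0.04 (117 tested, 73 below 0), and that sign turned to 0.01 for RPKM as deposited and ranged from -0.11 to 0.02 when a library was left out.

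Amino acid synthesis genes under Gcn4, the activator of the general amino acid response, lay below 0 in 46 of 50 cases, with a median of -0.18, and 26 were separated in the lower direction (10% of all features). The marker gene HIS3 is not in this list. HIS4, of histidine synthesis, had 209.9, 189.9 and 228 scaled RPKM in the epl1Δ sds3Δ-labelled libraries and 157, 145 and 178 in the triple-labelled libraries (-0.39, limma's adjusted p 0.719). HIS5 gave -0.32 and LYS9, of lysine synthesis, -0.42. For these genes too, ESA1 loss and the HIS3 marker cannot be told apart. Relative to the epl1Δ sds3Δ mean, the Gcn4 list lay at -0.20, -0.17 and -0.15 in the triple-labelled libraries. In those labelled esa1Δ sds3Δ it lay at -0.07, -0.03 and -0.06. The cause of the shift was not tested. Among 14 genes of leucine and branched-chain amino acid synthesis and uptake, 13 lay below 0 and 9 were separated in the lower direction (10% of all features), with a median of -0.21 (-0.12 with quantile normalization). BAT2 (branched-chain aminotransferase) gave -0.38, LEU9 (isopropylmalate synthase) -0.33, BAP3 (amino acid permease) -0.25 and ILV2 (acetolactate synthase) -0.20. By library, the leucine list lay at -0.21, -0.20 and -0.17 in the triple-labelled libraries and at 0.07, 0.13 and 0.24 in those labelled esa1Δ sds3Δ, relative to the epl1Δ sds3Δ mean. The triple-labelled libraries were below both other mutant groups there, while wild type lay at -0.38, -0.18 and -0.38.

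Purine and GMP synthesis genes lay below 0 in 19 of 24 cases, with a median of -0.23, and 13 were separated in the lower direction (10% of all features). ADE17, which encodes the enzyme of the last steps to IMP, had 105, 69.4 and 76.2 scaled RPKM in the epl1Δ sds3Δ-labelled libraries and 37.6, 43.1 and 37.8 in the triple-labelled libraries, with no overlap (log2 fold change -1.04, SE 0.320, adjusted p 0.682 in limma). Wild type spread from 93.0 to 287, and the SE is estimated over all 4 groups. In a fit of the 6 compared libraries alone ADE17, ADE13, ADE1, GCV1 and MF(ALPHA)2 were called as well, and AQY3 was not. ADE12 gave -0.46, ADE13 -0.61 and ADE6 -0.37. In the libraries labelled esa1Δ sds3Δ, ADE17 had 28.4, 31.2 and 31.1 scaled RPKM. Of 12 genes of glycine cleavage and one-carbon metabolism, which feed purine synthesis, 11 lay below 0 with a median of -0.16. SHM2, the cytosolic serine hydroxymethyltransferase gene, had 324, 231 and 286 against 168, 207 and 190.1 (-0.56, adjusted p 0.762 in limma), and GCV2 gave -0.45.
ADE17, chromosome XIII:509361-509530, minus strand, R64 build, bases 250 to 81 before the start codon: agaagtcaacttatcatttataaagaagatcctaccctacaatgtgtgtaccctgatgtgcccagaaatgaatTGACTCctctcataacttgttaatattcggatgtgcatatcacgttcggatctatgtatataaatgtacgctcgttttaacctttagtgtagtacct
The ADE17 window is shown because that gene had the lowest fold change of the purine list, and its capitals mark TGACTC, a motif read by Gcn4 and, in purine genes, by Bas1. Within 500 bases before the start codon, on either strand, TGACTC was found in 12 of 24 purine genes (50%), 9 of 12 one-carbon genes (75%), 34 of 50 Gcn4-list genes (68.0%) and 11 of 14 leucine-list genes (78.6%), against 13.2% of 5515 protein-coding genes. Several of these genes stand in more than one list. The Gcn4 list is named for a regulator that reads this motif, and the shares describe the lists and not the comparison.

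Zinc-responsive genes under Zap1 lay below 0 in 16 of 19 cases with a median of -0.16, which ranged from -0.21 to -0.10 when a library was left out, the latter without triple-labelled replicate 1. The zinc transporter gene ZRT1 had 2025, 1473 and 1484 scaled RPKM in the epl1Δ sds3Δ-labelled libraries and 1127, 1372 and 1189 in the triple-labelled libraries (-0.42, limma's adjusted p 0.758), ADH4 408, 314 and 370.1 against 229, 276 and 291 (-0.45) and ZPS1 gave -0.55. Ergosterol synthesis genes lay below 0 in 30 of 34 cases with a median of -0.12, among them ERG7 (lanosterol synthase, -0.26) and ERG4 (-0.25), and the median was -0.07 for RPKM as deposited. Cell wall genes had a median of -0.11 over 50 tested, which was -0.05 without epl1Δ sds3Δ replicate 3, -0.06 for RPKM as deposited and -0.05 with quantile normalization, with the mannoprotein gene TIP1 at -0.45 and the flocculin gene FLO5 at 0.51. FLO5 belongs to a family of near-identical genes between which reads may have been split.

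General stress genes under Msn2 and Msn4 lay above 0 in 60 of 65 cases, with a median of 0.23, and 12 were separated in the higher direction (6.53% of all features). OM45, an outer mitochondrial membrane protein gene, had 12.8, 17.2 and 15.1 scaled RPKM in the epl1Δ sds3Δ-labelled libraries and 22.9, 23.9 and 22.9 in the triple-labelled libraries (0.60, limma's adjusted p 0.719). GND2, of the pentose phosphate pathway, gave 0.36, and the stress phosphatase gene SDP1 gave -0.53. Here 1 library stood apart. Relative to the epl1Δ sds3Δ mean, replicate 1 of that group lay at -0.31 over the list, while replicates 2 and 3 lay at 0.09 and 0.22 and the triple-labelled libraries at 0.10, 0.27 and 0.33. Without that library the median fell to 0.08, with 47 of 65 above 0. Trehalose and glycogen genes moved with the same library, at a median of 0.14 over 22 genes that became -0.02 without it. The motif AGGGG was found in the 500 bases before 57 of 64 stress genes (89.1%), against 34.8% of protein-coding genes. The list is named for Msn2 and Msn4, which read this motif, so that share describes the list and not the comparison.

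Related lists gave smaller values. Of 33 heat shock and chaperone genes 24 lay above 0, with a median of 0.06, among them SSA3 (0.45), SSA4 (0.30) and HSP82 (0.29). The other 9 lay below 0, down to -0.30. In that list 8 genes were separated in the higher direction and 4 in the lower (6.53% and 10% of all features). Of 35 antioxidant genes 24 lay above 0, with a median of 0.09, among them the thioredoxin peroxidase gene AHP1 (0.27). Without epl1Δ sds3Δ replicate 1 these medians were 0.01 and 0.02. Proteasome genes lay above 0 in 35 of 39 cases with a median of 0.09, and 11 were separated in the higher direction (6.53% of all features). The median was 0.14 for RPKM as deposited. RPN14, an assembly chaperone of the 19S particle, had 4.31, 4.15 and 5.72 scaled RPKM against 7.08, 7.14 and 6.39 (0.47, limma's adjusted p 0.682).

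**Figure D4:**
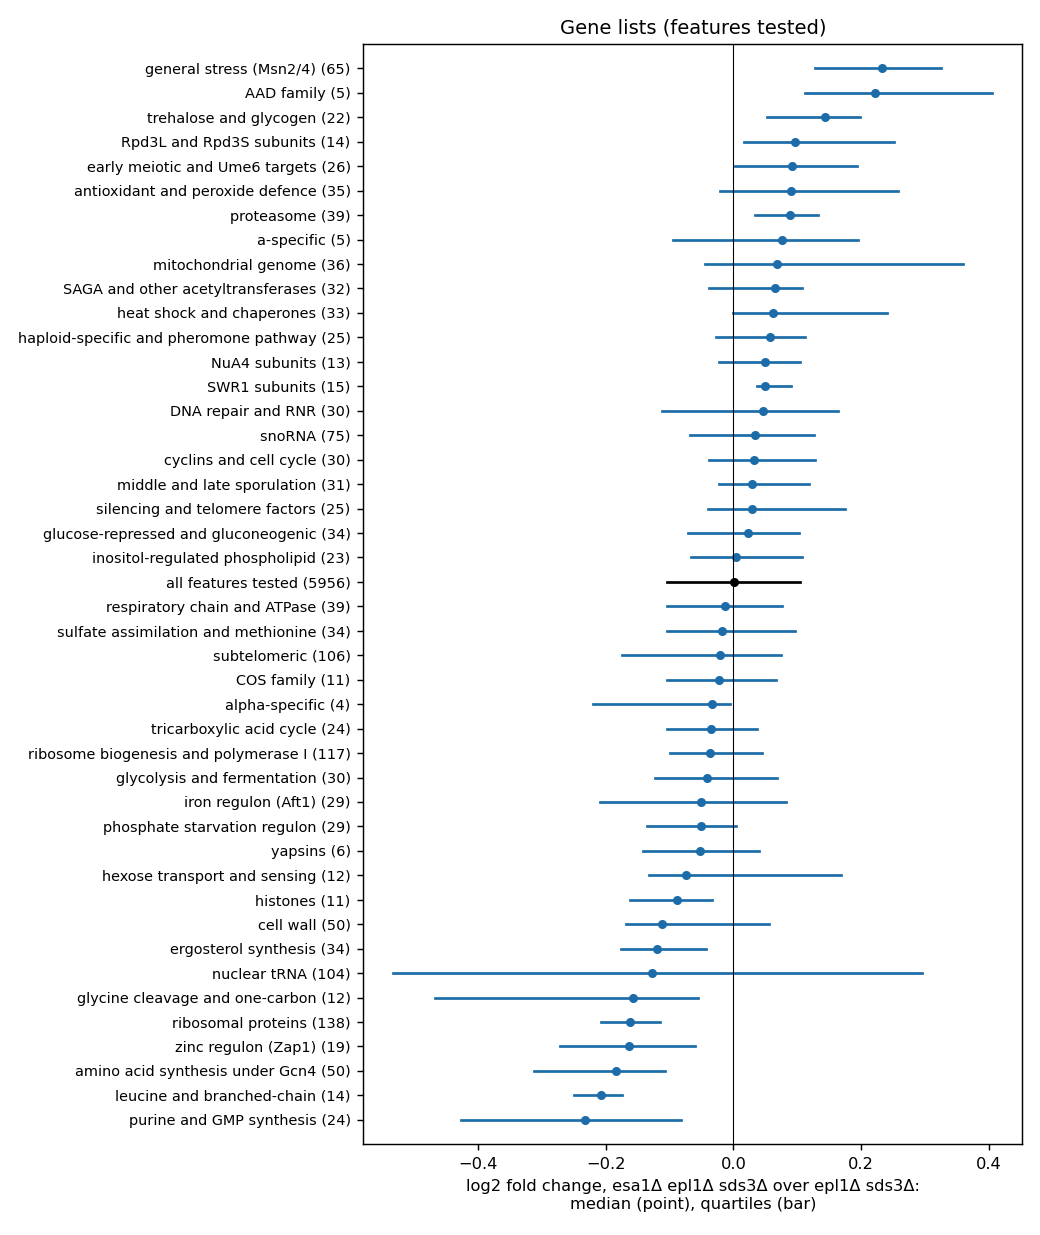
The plot of gene lists gives, for each list, the median log2 fold change of its tested members (points) and their quartiles (bars), with the number tested in brackets and all 5956 features in black. General stress genes stand highest at 0.23 and purine synthesis genes lowest at -0.23, and no member of any list except ESA1 was called.

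**Figure D5:**
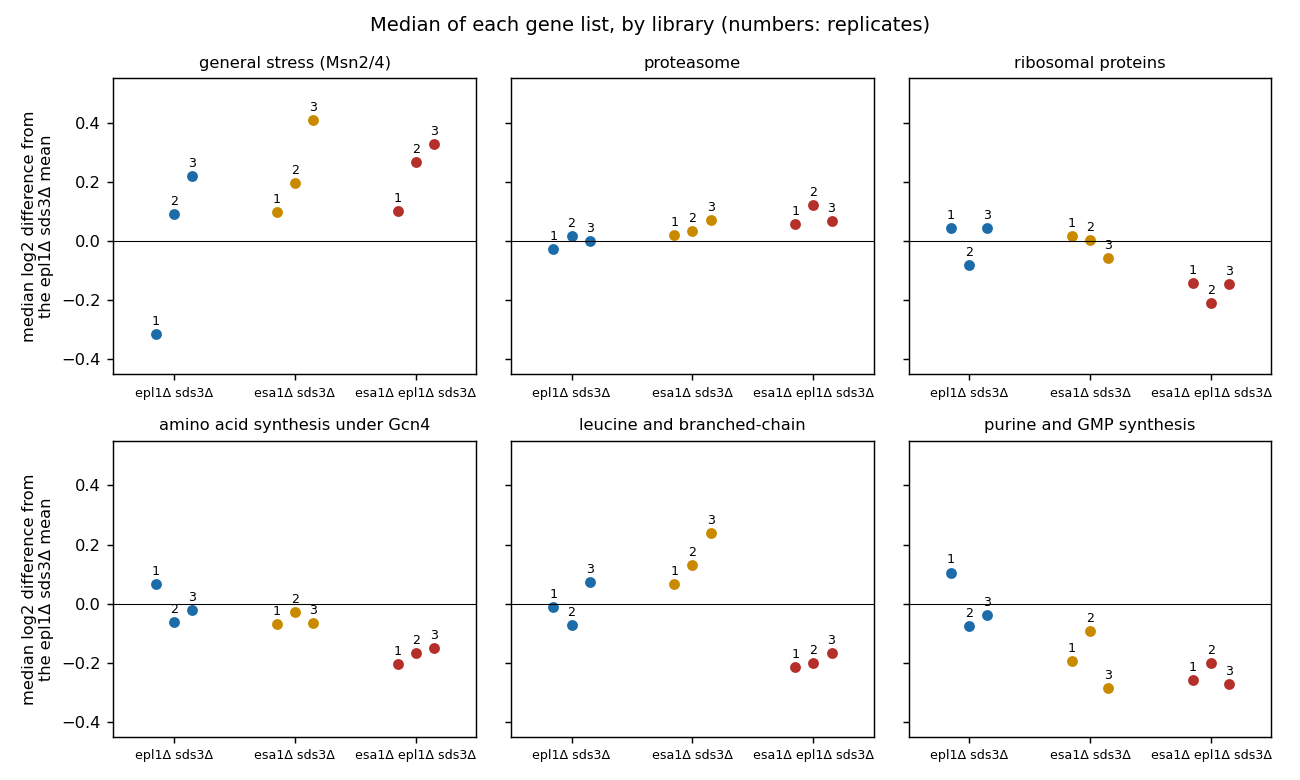
The plot of list medians by library gives the median log2 difference from the epl1Δ sds3Δ mean for 6 lists, with a point for each library numbered by replicate. The triple-labelled libraries (red) lie below all those labelled epl1Δ sds3Δ (blue) for the ribosomal protein, Gcn4, leucine and purine lists, while for general stress genes blue replicate 1 at -0.31 stands apart from the rest.

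Central carbon metabolism lay near 0, and the sign of each of the next 5 medians turned when 1 library was left out. The medians were 0.02 for 34 glucose-repressed genes, -0.07 for 12 hexose transport and sensing genes, -0.04 for 30 glycolytic and fermentation genes, -0.03 for 24 genes of the tricarboxylic acid cycle and -0.01 for 39 of the respiratory chain and ATPase. Phosphate starvation genes, iron genes under Aft1, genes of sulfate assimilation and inositol-regulated phospholipid genes had medians of -0.05, -0.05, -0.02 and 0.00, of which that of the iron genes alone kept its sign when any library was left out. Within these, the phosphatase gene PHO3 gave -0.54, the glucose transporter gene HXT1 -0.37 and the sulfate pathway regulator gene MET31 0.52, and none was called. The 6 yapsin genes, proteases of the cell surface, gave between -0.17 and 0.21.

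Genes that Rpd3L and Ume6 repress in growing cells are of interest here because SDS3 acts through that complex. Of 26 tested early meiotic genes 19 lay above 0 with a median of 0.09 (0.06 with a pseudocount of 5), and SPO11, the nuclease gene of meiotic recombination, had 3.51, 3.74 and 3.62 scaled RPKM in the epl1Δ sds3Δ-labelled libraries and 4.85, 7.28 and 4.96 in the triple-labelled libraries (0.52, limma's adjusted p 0.646). The list stood 1.00 above wild type in the epl1Δ sds3Δ group and 0.91 above it in the triple-labelled group, both set against the same wild-type libraries. Each of these values is the median of its own comparison, so they cannot be subtracted to give the 0.09. Middle and late sporulation genes had a median of 0.03, with no stable sign when a library was left out. Mating genes gave -0.03 over 4 α-specific, 0.08 over 5 a-specific and 0.06 over 25 haploid-specific and pheromone pathway genes, and the first and last of these turned sign when 1 library was left out. Genes within 20 kb of a chromosome end had a median of -0.02 over 106 tested, the COS family -0.02 over 11 and the AAD family 0.22 over 5. The AAD genes have near-identical copies, and some had few reads. Their median was 0.09 with a pseudocount of 5, and 0.41 over the 2 that averaged at least 10 RPKM. The COS median turned sign when 1 library was left out, and that of genes near chromosome ends for RPKM as deposited. Cell cycle genes had a median of 0.03, which was -0.01 without triple-labelled replicate 1, and DNA repair and ribonucleotide reductase genes 0.05, with RNR1 at -0.44.

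Non-coding RNAs were compared by their share of all reads. Small nucleolar RNAs took 26.1% ± 0.279 in the epl1Δ sds3Δ-labelled libraries and 27.4% ± 0.652 in the triple-labelled libraries (SD, n = 3 each), against 16.3% ± 0.434 in wild type. The groups did not overlap, and the exact two-sided permutation test gave p = 0.1, the smallest that 3 against 3 allows. Protein-coding genes took 53.7% ± 1.08 and 52.8% ± 1.11 (exact p = 0.4), and the remaining classes gave exact p of at least 0.3. Of 75 snoRNA genes 46 lay above 0 with a median log2 fold change of 0.03, but 35 did so without triple-labelled replicate 3 (-0.01) and 37 without epl1Δ sds3Δ replicate 1 (-0.00487). Nuclear tRNAs, which this kind of library records poorly, had a median of -0.13 over 104 tested of 276, with quartiles at -0.53 and 0.30, and of 0.09 over the 12 that averaged at least 10 RPKM. Features of the mitochondrial genome had a median of 0.07 (0.03 without epl1Δ sds3Δ replicate 1), and the mitochondrial tRNAs tE(UUC)Q and tK(UUU)Q gave 0.95 and 0.97 from at most 32 reads a library.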

How the data were processed

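Per the labels, rRNA-depleted, strand-specific total RNA libraries were sequenced. The values the authors deposited are RPKM. Cutadapt, STAR and Bowtie 0.12.2, with the builds sacCer3 and mm8, are named per the submitters' processing notes. The counting program and its strand setting are not given in the sources used here, so overlapping genes, antisense genes and near-identical copies are uncertain. Multiplied by exonic length, 99.7% of values under 5000 reads were whole within 0.01 read, which gave the reads. Positions come from SGD's R64-5-1 annotation (R64 is sacCer3), in which 964 features found no match.

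RPKM were divided by median-of-ratios factors (0.914 to 1.22) to give scaled RPKM. Tests used limma 3.58.1 in R 4.3.3 on log2(scaled RPKM + 1), which understates changes of low genes, over features averaging 1 RPKM or more, in 1 fit of the 12 libraries with a mean-variance trend, two-sided. The step was tested on simulated data. Shares of reads were tested by exact permutation (SciPy 1.17.1). P-values measure the spread between these libraries. Intervals of read ratios cover counting error only.

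Members and gene lists were chosen with earlier results of these data known, and lists get no test. Genes were named by rule: those the labels name with their neighbours and HIS3, up to 15 called per direction (at least 5 scaled RPKM in the higher group, groups not overlapping) filled to 10 by smallest p, and up to 4 per list by adjusted p. ATG19, LEU1, LEU2, YSA1, ADE1 and list members outside this rule were added after their values were seen. Alternatives covered scaling, pseudocount, filter, libraries in the fit, a replicate block, limma-voom and leaving out libraries.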

Additional observations from a re-analysis of the deposited data

How the results depend on the processing

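The planned count tests, edgeR and DESeq2, were not run because the deposited unit is RPKM, and limma-voom on the recovered reads was added after seeing the data. Against 8 called features, 6 were called for RPKM as deposited, 8 with quantile normalization, 8 with a pseudocount of 0.1 and 8 with one of 5, 7 with no filter, 8 with a minimum of 10 RPKM (which leaves ESA1 and YHK8 untested), 12 with the 6 compared libraries alone, 9 with limma-voom and 4 to 6 when a library was left out. HIS3 and APD1 were called in all 15 alternatives, ESA1 and YHK8 in the 14 that tested them, YBR137W in 12, YMR315W in 9, AQY3 in 7 and TPO1 in 6. Features called lower, 6 in the report, numbered 10 with the 6 libraries alone and 2 to 4 when a library was left out. Of those that moved by 1 log2 unit or more, 1 was called higher and 4 lower in the report. The higher number became 2 for RPKM as deposited, quantile normalization, a pseudocount of 0.1, a minimum of 10 RPKM and the replicate block, 3 with limma-voom, and 1 to 2 when a library was left out. The lower number became 2 for RPKM as deposited, a pseudocount of 5 and a minimum of 10 RPKM, and 2 to 4 when a library was left out. SIP18 was called with a pseudocount of 5, a minimum of 10 RPKM, the replicate block and limma-voom. The cause of these shifts was not tested.

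The labels give both groups replicates 1, 2 and 3, but libraries with the same number did not deviate together (correlations 0.0608, -0.0984 and 0.159), and not every library correlated best with its own number. They share only a number, and the replicate block gave 9 calls, the 8 of the report and SIP18.

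Of the log2 fold changes recomputed, 21 turned sign, all of genes that were not called. STE3 was 0.0221 and MF(ALPHA)1 0.0138 for RPKM as deposited, and MF(ALPHA)1 was 0.0188 with quantile normalization. When a library was left out, SDS3 ranged from -0.12 to 0.29, KTR7 from -0.0273 to 0.0437, YPS6 from -0.0248 to 0.34, YPS3 from -0.0675 to 0.15, YPS5 from -0.0187 to 0.16, STE3 from -0.0648 to 0.0252, MF(ALPHA)1 from -0.18 to 0.0556, MFA2 from -0.59 to 0.25 and AAD14 from -0.0891 to 0.28. Of the 43 list medians, 22 turned sign under some alternative, 18 of them when a library was left out, 9 for RPKM as deposited, 5 with quantile normalization and 6 at a minimum of 10 RPKM. Of the 12 beyond 0.1, 10 never did, the others being trehalose and glycogen genes and nuclear tRNAs. The respiratory chain median was 0.04 for RPKM as deposited and with quantile normalization, and -0.08 without epl1Δ sds3Δ replicate 1, and the glucose-repressed one was -0.03 without that library. Features under 10 RPKM are bounded less tightly than the rest, and few reads limit the tRNAs.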
